A study of Mus musculus with 19 samples.

Results

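The phospholipid head group genes are 9 genes, of 31053 listed in the count table, whose enzymes make, attach or release the ethanolamine, choline and inositol head groups of membrane phospholipids. They were taken by name: 4 of the ethanolamine branch (*Etnk1*, *Etnk2*, *Pcyt2* and *Etnppl*), 4 of the choline branch (*Chka*, *Pcyt1a*, *Pemt* and *Gpcpd1*) and 1 of the inositol branch (*Isyna1*). They were chosen with their levels in these libraries known. *Etnppl* was known to be among the genes most lowered by AAV-miR-34b/c relative to AAV-GFP, and *Gpcpd1* among those most lowered between AAV-GFP and vehicle. Their values are therefore given as a description. No p-value is printed for them, and which of them passed the threshold of the fit over all genes is stated only to describe them, as support for nothing.

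The livers came from male C57BL6J mice aged 6 to 8 weeks at the start. Thioacetamide (TAA), a hepatotoxin that is activated by liver enzymes, was given in rising doses for 12 weeks. At week 10, TAA-treated mice received an adeno-associated vector of serotype 8 that expresses either eGFP (AAV-GFP, 7 libraries) or miR-34b and miR-34c, given as a mixture of a vector for each (AAV-miR-34b/c, 7 libraries), and the livers were taken 4 weeks later. Vehicle-treated mice (5 libraries, labelled PBS) had neither TAA nor vector, so that TAA and the vector cannot be told apart in a comparison with vehicle. In these vectors the insert is driven by the hepatocyte-specific TBG promoter. The labels number the libraries within each group, and each library was taken here as a separate mouse. The comparison of the TAA groups, AAV-miR-34b/c with AAV-GFP, asks what the miRNAs change in TAA-injured liver, and that of AAV-GFP with vehicle asks what the injury with the control vector changes. Both share the AAV-GFP livers, and both comparisons with vehicle share the vehicle livers.

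In the Kennedy pathway, ethanolamine and choline are phosphorylated by kinases, activated with CTP by a cytidylyl transferase and joined to diacylglycerol, which gives phosphatidylethanolamine (PE) and phosphatidylcholine (PC). The cytidylyl transferases are regarded as the controlling steps. Liver has a further route to PC, in which PE is methylated 3 times with S-adenosylmethionine as methyl donor, and it needs PC for bile and for very low density lipoproteins. Other enzymes take head groups back: a lyase destroys phosphoethanolamine, and a phosphodiesterase frees choline from the PC breakdown product glycerophosphocholine. Inositol, the head group of phosphatidylinositol, can be made from glucose 6-phosphate.

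Expression is given as CPM, the usual counts normalized to a common library size, which was scaled here by the trimmed mean of M-values (TMM). Total counts per library were 2214073 to 4145454 with vehicle, 2463842 to 4383805 with AAV-GFP and 2717503 to 5208405 with AAV-miR-34b/c. Mitochondrial genes took 3.73% to 5.65%, 4.83% to 9.41% and 3.71% to 10.8% of the counts, respectively. The 12 hepatocyte markers checked, such as albumin, together reached 94130 to 115100 CPM with vehicle, 95470 to 107400 CPM with AAV-GFP and 102400 to 151200 CPM with AAV-miR-34b/c, and none of them was at 0 in all libraries. In 6 pairs of libraries (vehicle 1 and 4, vehicle 3 and 5, AAV-GFP 1 and 2, and AAV-miR-34b/c 1 and 2, 3 and 4, and 5 and 7) the variation between the libraries over genes, with counting noise removed, had a coefficient of 0.0812 to 0.171, under the 0.2 that every other pair within a group exceeded. The effect of summing these pairs on the calls is given with the results. Levels of circadian clock output genes, such as *Dbp* and *Per2*, also set libraries apart. Over 11 such genes, log2 CPM averaged 4.65 and 4.73 in AAV-miR-34b/c libraries 5 and 7, against 2.15 to 2.94 in the other 5 of that group. It was 4.18 to 5.07 with vehicle and 2.45 to 4.34 with AAV-GFP. Of the TAA groups, only AAV-GFP library 7 and AAV-miR-34b/c libraries 5 and 7 lay within the vehicle range. A fit against vehicle with this level as a covariate therefore cannot separate the level from the group well. Calls lost in such a fit are given as a description. The time of day of tissue collection is not given in the sources used here.

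The miRNA of the miR-34b vector is shown for its seed, bases 2 to 8, in capitals. The mature form in RefSeq lies at chr9:51103610-51103632 on the minus strand of GRCm38.p6.
mmu-miR-34b-5p: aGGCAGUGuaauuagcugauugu
The complement of this seed, CACTGCC, was searched in the longest annotated 3′ UTR of each gene (GENCODE, GRCm38), on the transcript strand. It occurs in 1641 of 9536 tested genes with such a UTR (17.2%, median UTR length 1194 bases) and in 4 of the 9 head group genes. The 30 bases around each match are shown with the match in capitals, since these are the only matches in the 9 genes. Positions count from the first UTR base.
*Etnk1*, bases 452 to 458 of 5090: aaccttggcagtCACTGCCtcagtagtaac
*Pcyt2*, bases 301 to 307 of 582: ggttccaactgcCACTGCCccagtcttggc
*Chka*, bases 77 to 83 of 962: cgctgctgtgacCACTGCCctgggcagaag
*Chka*, bases 602 to 608 of 962: atggaccagcacCACTGCCtggccataact
*Pcyt1a*, bases 28 to 34 of 3567: ccctctctccccCACTGCCcatcacctcca
No match was found in the 3′ UTRs of *Etnk2*, *Etnppl*, *Pemt*, *Gpcpd1* and *Isyna1* (947, 2844, 204, 1471 and 92 bases). The match describes letters and not a site in use. Between the TAA groups, the fold changes of the 4 genes with a match were 0.20 for *Etnk1*, 0.07 for *Pcyt2*, -0.25 for *Chka* and 0.27 for *Pcyt1a* on the log2 scale, each within 2 standard errors of 0.

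*Etnppl*, *Chka*, *Gpcpd1* and *Isyna1* differed by more than 2-fold in at least 1 comparison, and the kinases of ethanolamine, the cytidylyl transferases and the PE methyltransferase by less. Between AAV-GFP and vehicle, 4 of the 9 genes were past an adjusted p of 0.05 in edgeR's quasi-likelihood test, *Etnppl* and *Chka* higher and *Gpcpd1* and *Etnk1* lower, while 12.7% of all 9522 genes tested were past it. Between the TAA groups it was 2 of 9, *Isyna1* higher and *Etnppl* lower, beside 3.36% of 9252 genes. With AAV-miR-34b/c against vehicle it was 3 of 9, *Chka* and *Isyna1* higher and *Gpcpd1* lower, beside 21.9% of 9290 genes. Because the genes were chosen on these contrasts, nothing is read from the counts. All 9 passed the filter on low counts in each comparison. Their median log2 fold change was 0.0365, 0.157 and 0.228 in this order, and that of all genes tested -0.00896, -0.00748 and 0.0159. In these whole-liver libraries, fewer cells of a type and less RNA per cell cannot be told apart.

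**Figure D1:**
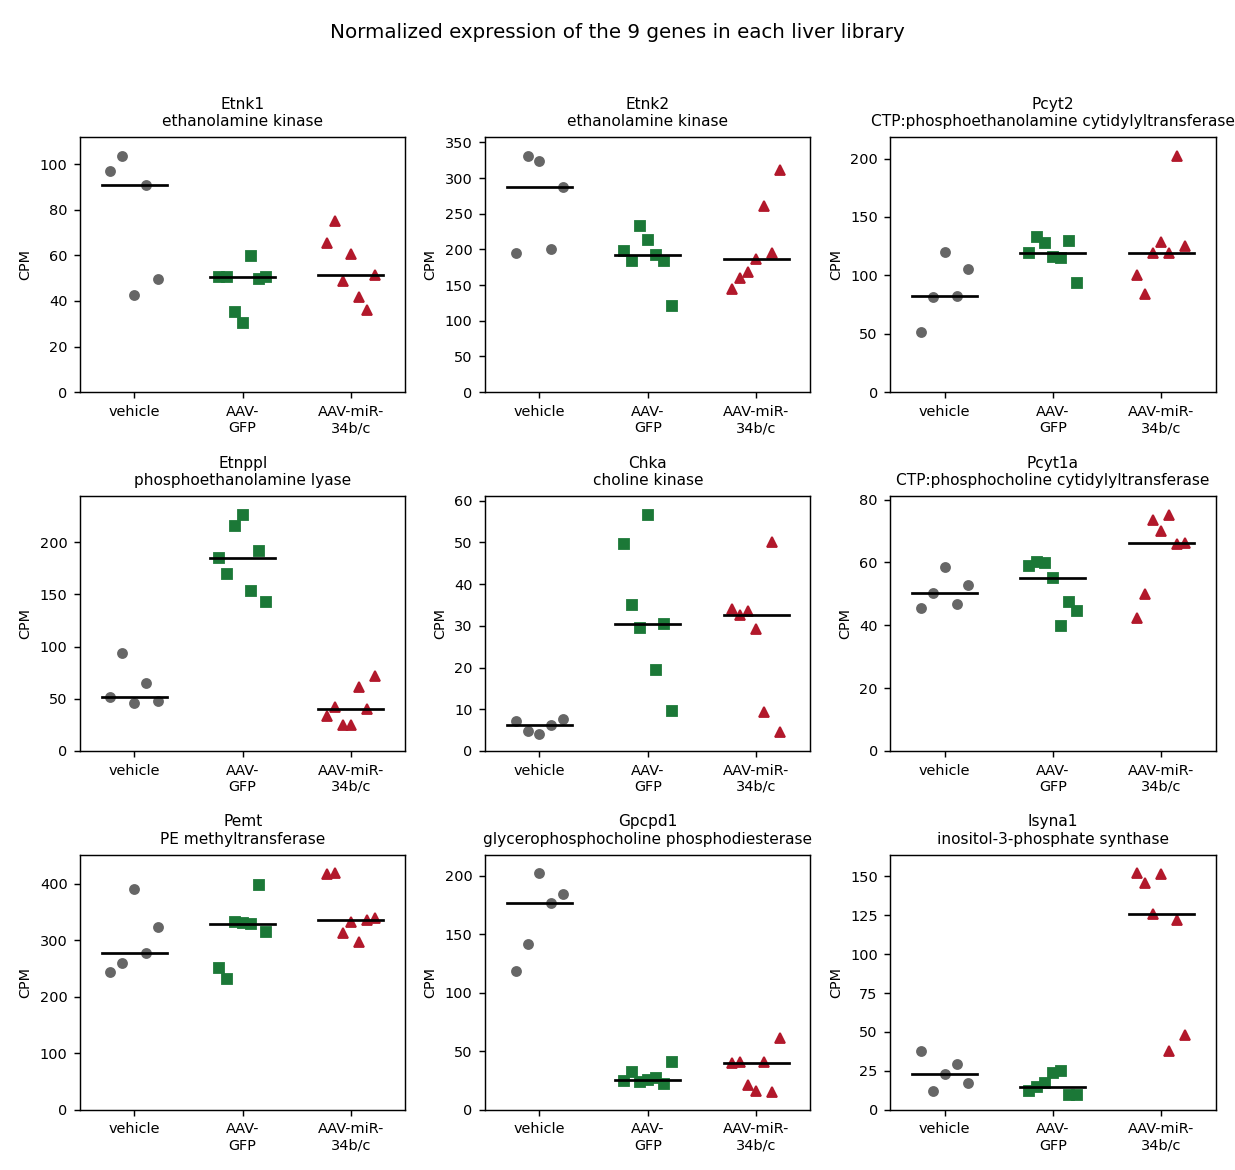
Normalized expression (CPM, vertical axis from 0) of the 9 genes in each library, with 1 point per library in replicate order and a line at the group median. *Etnppl* is high in the AAV-GFP livers alone, *Gpcpd1* in the vehicle livers alone and *Isyna1* in the AAV-miR-34b/c livers, where libraries 5 and 7 are the lowest.

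The first step of the ethanolamine branch is catalysed by ethanolamine kinases. *Etnk1* (ENSMUSG00000030275, chr6:143167221-143232307, plus strand) was at 97.1, 104, 42.8, 90.8 and 49.7 CPM in the vehicle livers, at 30.4 to 59.8 CPM (median 50.4) with AAV-GFP and at 36.0 to 75.1 CPM (median 51.3) with AAV-miR-34b/c. The vehicle libraries fell into 3 high and 2 low ones, and the low ones lay within the range of both TAA groups. The 2 low libraries are one of the close pairs. Relative to vehicle, the log2 fold change with AAV-GFP was -0.72 ± 0.226 (SE), 1.65-fold lower. *Etnk1* was no longer called in 7 of the 12 fits that left out 1 library, with log2 fold changes of -0.87 to -0.59 over the 12, or with close pairs summed (-0.82 ± 0.265), with library size only (-0.66 ± 0.229) or with the clock output level as a covariate (-0.41 ± 0.29).

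*Etnk2* (ENSMUSG00000070644, chr1:133363572-133380336, plus strand), the ethanolamine kinase known for its expression in liver, was at 195, 331, 324, 201 and 287 CPM with vehicle. It was at 120 to 233 CPM (median 193) with AAV-GFP and at 144 to 312 CPM (median 186) with AAV-miR-34b/c. All 3 groups overlapped. The highest values with AAV-miR-34b/c, 261 and 312 CPM, came from libraries 5 and 7. Fitted log2 fold changes were -0.50 ± 0.184 with AAV-GFP against vehicle, 0.10 ± 0.183 between the TAA groups and -0.39 ± 0.206 with AAV-miR-34b/c against vehicle. With libraries 5 and 7 left out, a choice made after the data were seen, the middle value was -0.16 and the last -0.65. With the clock output level as a covariate the last turned to 0.06 ± 0.205.

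*Pcyt2* (ENSMUSG00000025137, chr11:120610087-120617936, minus strand) encodes the cytidylyl transferase that makes CDP-ethanolamine. Its level was 51.7, 81.7, 120, 82.5 and 105 CPM with vehicle, 93.8 to 133 CPM (median 119) with AAV-GFP and 84.0 to 202 CPM (median 120) with AAV-miR-34b/c. The TAA groups had the same middle level, and the vehicle group reached lower. Relative to vehicle, the log2 fold change was 0.43 ± 0.185 with AAV-GFP and 0.52 ± 0.22 with AAV-miR-34b/c, and between the TAA groups it was 0.07 ± 0.166. Across the 19 libraries *Etnk1* and *Pcyt2* ran opposite to each other, with a Pearson r of log2 CPM of -0.763, and of -0.696 after the mean of each group was subtracted.

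*Etnppl* (ENSMUSG00000019232, chr3:130617448-130637521, plus strand) encodes the lyase that breaks phosphoethanolamine down to acetaldehyde, ammonia and phosphate, and so removes the substrate of *Pcyt2*. Its level was 52.0, 94.1, 45.5, 64.7 and 47.7 CPM with vehicle, 143 to 226 CPM (median 185) with AAV-GFP and 24.7 to 71.8 CPM (median 40.5) with AAV-miR-34b/c. Every AAV-GFP liver was above every liver of the other groups. The log2 fold change was 1.59 ± 0.199 with AAV-GFP against vehicle (3.0-fold higher) and -2.11 ± 0.226 between the TAA groups (4.31-fold lower with AAV-miR-34b/c). With AAV-miR-34b/c against vehicle it was -0.52 ± 0.268, and 5 of the 7 AAV-miR-34b/c livers were below all vehicle livers. The other 2 were libraries 5 and 7, at 61.3 and 71.8 CPM. Without these, the log2 fold change was -2.48 ± 0.196 against AAV-GFP and -0.88 ± 0.238 against vehicle. With the clock output level as a covariate it was -2.07 ± 0.213 against AAV-GFP, and against vehicle it turned to 0.03 ± 0.273.

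The promoter of *Etnppl* is shown because the gene went up and down between the groups more than the rest of its branch. RefSeq places the first of its starts so that 250 bases before and 50 bases from the start on cover chr3:130617198-130617497 on the plus strand of GRCm38.p6. The capitals mark the bases from the start on.
*Etnppl* promoter: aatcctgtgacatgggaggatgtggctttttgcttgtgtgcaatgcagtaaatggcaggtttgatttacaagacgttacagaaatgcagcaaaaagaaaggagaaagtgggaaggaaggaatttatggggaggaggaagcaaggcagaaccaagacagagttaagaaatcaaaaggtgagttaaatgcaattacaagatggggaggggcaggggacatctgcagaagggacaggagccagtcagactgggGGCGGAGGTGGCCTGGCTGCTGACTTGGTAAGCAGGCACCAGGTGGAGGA

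**Figure D2:**
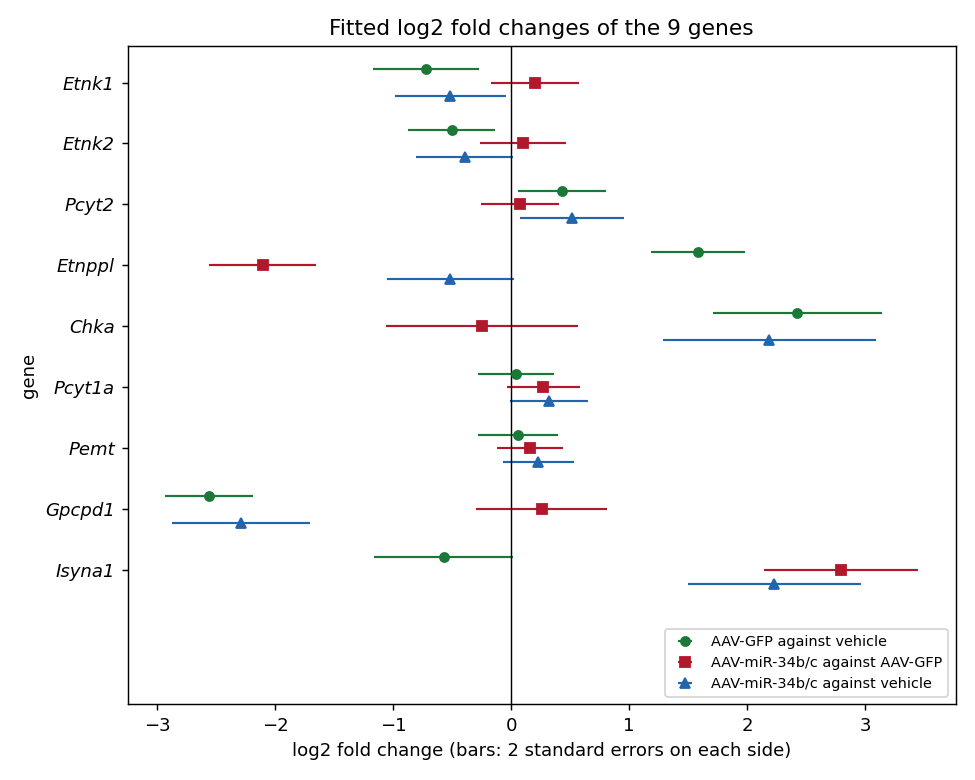
Fitted log2 fold changes of the 9 genes (horizontal axis) in the 3 comparisons, with bars of 2 standard errors on each side. The bars of *Etnppl* lie above 0 for AAV-GFP against vehicle and below 0 for AAV-miR-34b/c against AAV-GFP, those of *Isyna1* lie above 0 in both comparisons of AAV-miR-34b/c, and those of *Pcyt1a* and *Pemt* cross 0 throughout.

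In the choline branch, *Chka* (ENSMUSG00000024843, chr19:3851773-3894369, plus strand) encodes choline kinase alpha, which phosphorylates choline. Its level was 7.3, 4.9, 4.0, 6.3 and 7.7 CPM with vehicle, 9.6 to 56.7 CPM (median 30.4) with AAV-GFP and 4.5 to 50.2 CPM (median 32.5) with AAV-miR-34b/c. The vehicle values rest on 9 to 26 counts per library. All AAV-GFP livers and 6 of the 7 AAV-miR-34b/c livers were above all vehicle livers. Relative to vehicle, the log2 fold change was 2.43 ± 0.359 with AAV-GFP (5.38-fold higher) and 2.19 ± 0.452 with AAV-miR-34b/c (4.56-fold higher). Between the TAA groups it was -0.25 ± 0.407, an interval of -1.06 to 0.57 for 2 standard errors on each side.

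The low *Chka* libraries of the TAA groups were those with high clock output genes. In AAV-miR-34b/c libraries 5 and 7 *Chka* was at 9.3 and 4.5 CPM, and in the other 5 at 29.2 CPM or more. In AAV-GFP library 7, which had the highest clock output level of its group, it was at 9.6 CPM. With the clock output level as a covariate, the log2 fold change against vehicle was 1.78 ± 0.396 with AAV-GFP and 0.47 ± 0.325 with AAV-miR-34b/c. The latter was no longer called, but the covariate and the group are hard to tell apart in these comparisons. Without libraries 5 and 7 the latter was 2.57 ± 0.245. The promoter of *Chka* is shown as that of the choline gene most above vehicle, at chr19:3851523-3851822 on the plus strand, with the bases from the RefSeq start on in capitals.
*Chka* promoter: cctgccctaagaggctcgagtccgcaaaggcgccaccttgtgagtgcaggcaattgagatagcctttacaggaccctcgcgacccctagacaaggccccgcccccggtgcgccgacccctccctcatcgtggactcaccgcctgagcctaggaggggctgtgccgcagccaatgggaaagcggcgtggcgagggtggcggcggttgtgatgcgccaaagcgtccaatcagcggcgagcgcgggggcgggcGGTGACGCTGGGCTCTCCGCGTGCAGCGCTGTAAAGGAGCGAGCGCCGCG

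*Pcyt1a* (ENSMUSG00000005615, chr16:32430921-32475070, plus strand) encodes the cytidylyl transferase that makes CDP-choline, the controlling enzyme of this branch. It was at 45.4, 50.3, 58.4, 46.9 and 52.9 CPM with vehicle, at 39.6 to 60.2 CPM (median 54.9) with AAV-GFP and at 42.4 to 75.2 CPM (median 66.3) with AAV-miR-34b/c. The 5 AAV-miR-34b/c libraries numbered 3 to 7 were above all libraries of the other groups, and libraries 1 and 2 were not. Libraries 1 and 2 also stood apart in their mitochondrial share, at 3.71% and 3.73% of counts against 8.21% to 10.8% in libraries 3 to 7. Fitted log2 fold changes were 0.04 ± 0.161, 0.27 ± 0.156 and 0.32 ± 0.166 for AAV-GFP against vehicle, AAV-miR-34b/c against AAV-GFP and AAV-miR-34b/c against vehicle. *Slc51a*, which overlaps its 3′ end on the opposite strand, had no counts.

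*Pemt* (ENSMUSG00000000301, chr11:59970614-60046489, minus strand), the methyltransferase that turns PE into PC, is mainly a liver enzyme. It was at 244, 261, 391, 278 and 324 CPM with vehicle, at 232 to 398 CPM (median 328) with AAV-GFP and at 298 to 419 CPM (median 336) with AAV-miR-34b/c. The groups overlapped, and the log2 fold change was 0.06 ± 0.170, 0.16 ± 0.141 and 0.23 ± 0.151 in the same order. The direction of the first value changed under other settings, with -0.10 when the clock output level was a covariate.

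*Gpcpd1* (ENSMUSG00000027346, chr2:132529082-132587729, minus strand) encodes a glycerophosphocholine phosphodiesterase. Its level was 119, 142, 202, 177 and 185 CPM with vehicle, 21.7 to 40.8 CPM (median 25.4) with AAV-GFP and 15 to 61.4 CPM (median 40.0) with AAV-miR-34b/c. Every liver of TAA-treated mice was below every vehicle liver. The log2 fold change against vehicle was -2.56 ± 0.186 with AAV-GFP (5.90-fold lower) and -2.29 ± 0.293 with AAV-miR-34b/c (4.91-fold lower), and between the TAA groups it was 0.26 ± 0.277. Within the AAV-miR-34b/c group, libraries 3, 4 and 6 were at 21.3, 16.4 and 15 CPM, below all AAV-GFP livers, and library 7 was the highest. Without libraries 5 and 7, the value between the TAA groups was -0.08 ± 0.270. With the clock output level as a covariate, the difference from vehicle was -2.40 ± 0.245 with AAV-GFP and -1.87 ± 0.354 with AAV-miR-34b/c.

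The inositol branch is represented by *Isyna1* (ENSMUSG00000019139, chr8:70594373-70597290, plus strand), the synthase that turns glucose 6-phosphate into inositol 3-phosphate. Its level was 37.8, 11.8, 22.7, 29.3 and 17.0 CPM with vehicle, 9.2 to 25.0 CPM (median 14.9) with AAV-GFP and 37.8 to 152 CPM (median 126) with AAV-miR-34b/c. All AAV-miR-34b/c livers were above all AAV-GFP livers, and 6 of the 7 above all vehicle livers. The log2 fold change was 2.79 ± 0.327 between the TAA groups (6.93-fold higher with AAV-miR-34b/c), 2.23 ± 0.367 with AAV-miR-34b/c against vehicle (4.68-fold higher) and -0.57 ± 0.295 between AAV-GFP and vehicle.

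Within the AAV-miR-34b/c group, *Isyna1* was at 37.8 and 47.8 CPM in libraries 5 and 7 and at 122 to 152 CPM in the other 5. With the clock output level as a covariate, the log2 fold change was 2.33 ± 0.254 against AAV-GFP and 1.04 ± 0.272 against vehicle, and without libraries 5 and 7 it was 3.11 ± 0.239 and 2.55 ± 0.257. The promoter of *Isyna1* is shown beside that of *Etnppl*, since both moved between the TAA groups, in opposite directions. It covers chr8:70594231-70594530 on the plus strand, with the bases from the RefSeq start on in capitals.
*Isyna1* promoter: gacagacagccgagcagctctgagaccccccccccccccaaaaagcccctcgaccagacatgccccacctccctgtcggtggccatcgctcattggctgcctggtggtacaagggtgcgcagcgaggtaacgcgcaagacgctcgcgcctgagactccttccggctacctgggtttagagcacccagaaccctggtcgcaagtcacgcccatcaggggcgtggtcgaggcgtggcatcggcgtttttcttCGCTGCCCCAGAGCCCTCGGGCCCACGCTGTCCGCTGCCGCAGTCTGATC

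**Figure D3:**
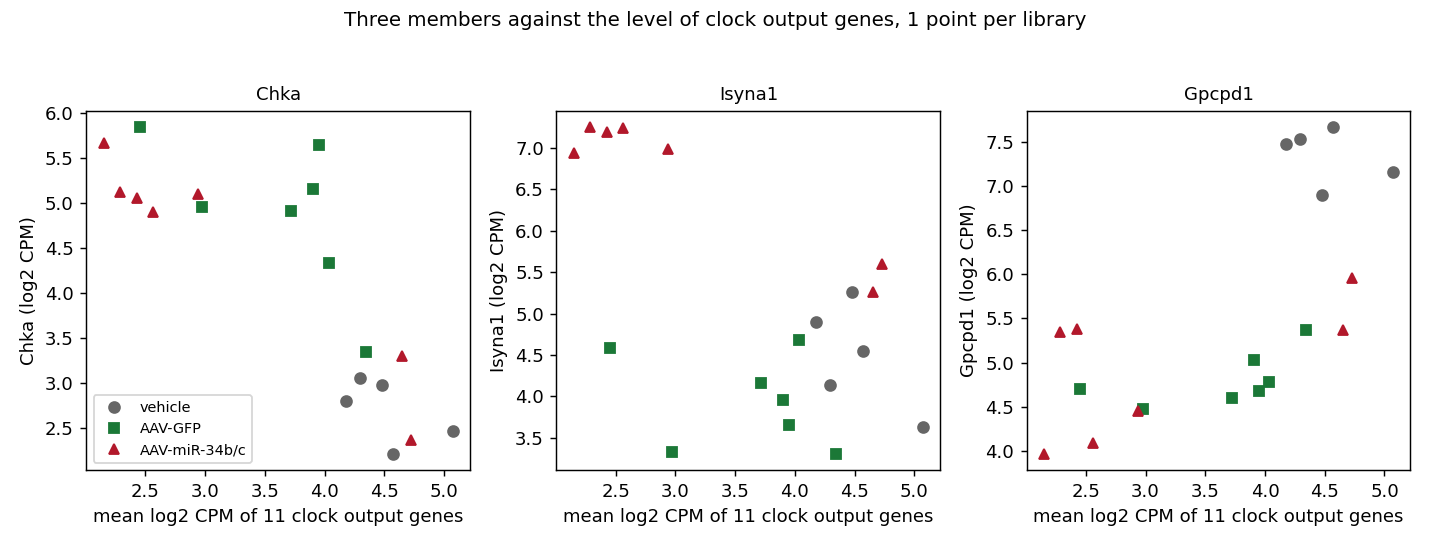
Log2 CPM of *Chka*, *Isyna1* and *Gpcpd1* (vertical axes) against the average log2 CPM over 11 clock output genes (horizontal axes), with 1 point per library and a symbol per group. AAV-miR-34b/c libraries 5 and 7, at 4.65 and 4.73 on the horizontal axis, have the lowest *Chka* and *Isyna1* of their group.

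The RefSeq promoter table used here gave 11 promoters for 7 of the 9 genes, and those of *Gpcpd1* and *Pcyt2* were not searched. 4 motifs, chosen after the genes most like the members were known, were searched on both strands in these windows of 300 bases. They were the E-box CACGTG, found in 7.15% of all 32851 promoters of this length, the D-box TTATGNAA (3.38%), the STAT motif TTCNNNGAA (8.30%) and the core of the antioxidant response element TGACNNNGC (12.4%). The last was found in the *Etnk1* promoter, 54 bases before the start, and in 2 of the 3 *Pcyt1a* promoters. The STAT letters were found in 1 *Pemt* promoter, 22 bases before the start. None of these letters is in the windows of *Etnppl*, *Chka*, *Isyna1* and *Etnk2*, which says nothing of any factor. No motif overlapped another.

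The genes whose log2 CPM was most like that of a member over the 19 libraries were sought among 9005 genes tested in all comparisons, as a description without a p-value. The libraries are the same for both genes of a pair, and the 3 groups enter as well as the mice within them. For *Chka* these were *Arntl*, which encodes the clock activator BMAL1 (Pearson r = 0.930), *Ndrg1* (0.927) and *Rnf144a* (0.921). *Arntl* was at 0 to 1.22 CPM with vehicle, so that it rests there on few counts, at 0.319 to 7.05 CPM with AAV-GFP and at 0.356 to 8.84 CPM with AAV-miR-34b/c. For *Gpcpd1* they were *Cyp7a1*, the rate-limiting enzyme of bile acid synthesis (0.941), *Por*, the electron donor of the cytochromes P450 (0.895), and *Mup17* (0.895), whose reads may be shared with other major urinary protein genes. *Cyp7a1* was at 273 to 410 CPM with vehicle, at 36.2 to 143 CPM with AAV-GFP and at 37.2 to 195 CPM with AAV-miR-34b/c. After the mean of each group was subtracted, *Cyp7a1* (0.850), *Slc40a1*, the iron exporter ferroportin (0.815), and *Coq10b* (0.796) were most like *Gpcpd1*.

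For *Etnppl* the most similar genes were *Gclc*, which encodes the catalytic subunit of the first enzyme of glutathione synthesis (0.884), the carboxylesterase gene *Ces2e* (0.873) and *Gsn*, which encodes the actin-severing protein gelsolin (0.864). *Gclc* was at 134 to 157 CPM with vehicle, at 294 to 503 CPM with AAV-GFP and at 144 to 217 CPM with AAV-miR-34b/c, so that the AAV-GFP group stood above both others, as for *Etnppl*. After the group means were subtracted they were others, *Mcur1* (0.773), *Abca8a* (0.757) and *Angptl2* (0.751). For *Isyna1* they were genes of plasma proteins that hepatocytes secrete, *Itih3* (0.965), *Fgb*, the fibrinogen beta chain (0.961), and *Serpina3n* (0.943). *Itih3* was at 542 to 1159 CPM with vehicle, at 282 to 900 CPM with AAV-GFP and at 1259 to 3251 CPM with AAV-miR-34b/c. *Serpina3n* was at 256 to 314 CPM, 115 to 425 CPM and 796 to 2207 CPM in the same order.

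**Figure D4:**
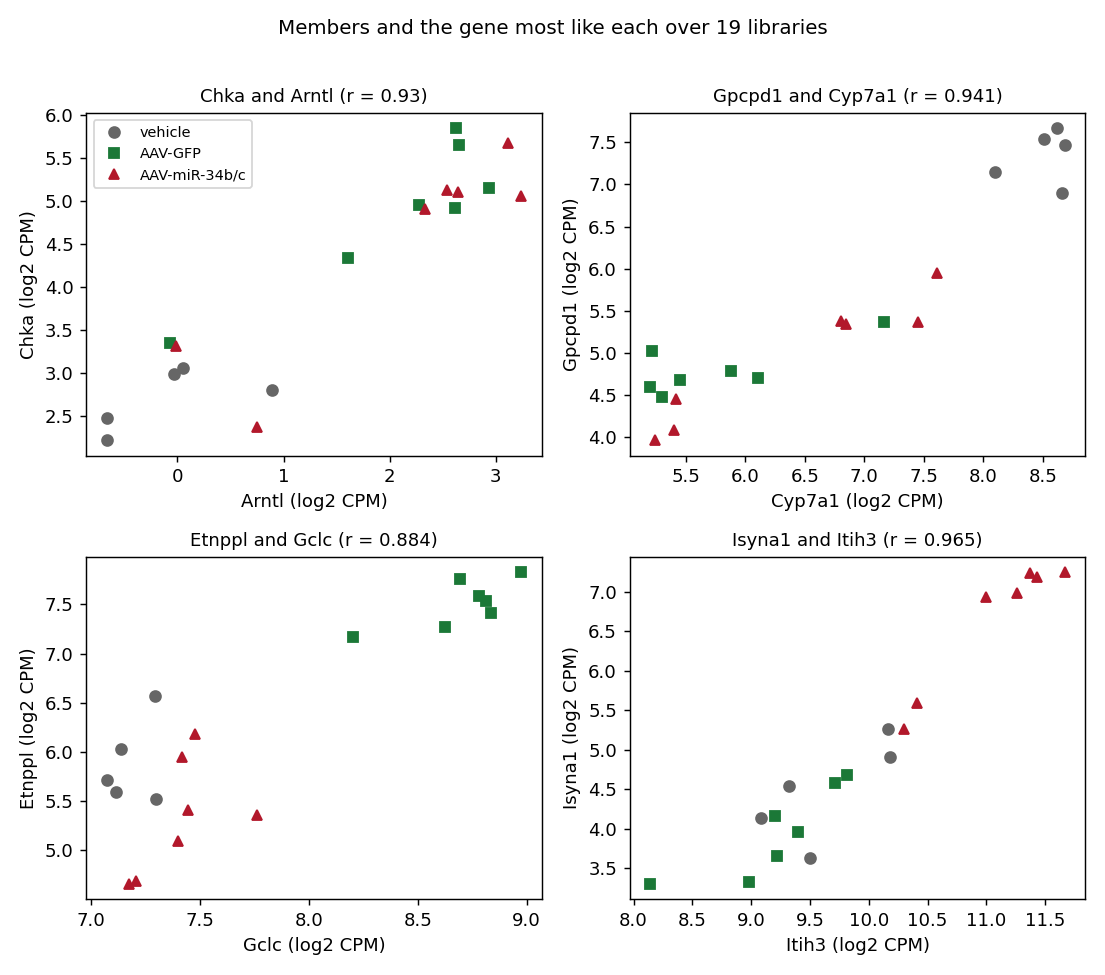
Log2 CPM of *Chka*, *Gpcpd1*, *Etnppl* and *Isyna1* (vertical axes) against the gene most like each over the 19 libraries (horizontal axes), with 1 point per library and Pearson r above each panel. *Etnppl* and *Gclc* are highest in the AAV-GFP livers, and *Isyna1* and *Itih3* in the AAV-miR-34b/c livers, of which 1 lies within the vehicle range of *Isyna1*.

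Of the members that differed less, *Etnk1* was most like *Arpc1a* (0.876), *Ift52* (0.857) and *C1s1* (0.841), and *Etnk2* most like *Hnrnpd* (0.837), *Cpt1a*, the entry enzyme of mitochondrial fatty acid oxidation (0.806), and *Mertk* (0.790). *Pcyt2* was most like the ribosomal protein gene *Rpl14* (0.916), the insulin receptor substrate gene *Irs2* (0.881) and the adenylate kinase gene *Ak3* (0.879). *Pcyt1a* was most like *Knop1* (0.898), *Ankhd1* (0.883) and *Tsn* (0.877), and *Pemt* most like *BC031181* (0.859), *Rpl8* (0.831) and *Ppa1* (0.830). Among the members themselves, *Chka* and *Gpcpd1* had an r of -0.846 (-0.670 with group means subtracted), and *Etnppl* and *Isyna1* of -0.800 (-0.567).

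Around the 9 members, 63 other genes of the pathway were listed by function, in 7 lists with earlier results of these data known. Of these, 47 were tested between AAV-GFP and vehicle, and 6 were higher and 2 lower at an adjusted p under 0.05 in edgeR's quasi-likelihood test. This is 17.0% of those tested, beside 12.7% of all genes. Between the TAA groups 1 of 45 was higher (2.22%, beside 3.36%), and with AAV-miR-34b/c against vehicle 9 were higher and 6 lower of 46 (32.6%, beside 21.9%). The median log2 fold change of the list was 0.0518, -0.00602 and 0.0805. With close pairs of libraries summed, none of these genes passed in the 3 comparisons, where edgeR gave 12, 6 and 16 with an unadjusted p under 0.05. On all libraries, limma-voom with sample quality weights called 17, 5 and 23. The genes called with all libraries kept their direction there in the comparisons where they were called, with log2 fold changes such as 1.05 ± 0.310 for *Cbs*, 0.96 ± 0.274 for *Selenoi* and -0.67 ± 0.199 for *Gde1* between AAV-GFP and vehicle. With the clock output level as a covariate, 0 of the 8 genes between AAV-GFP and vehicle still passed, and 11 of the list had an unadjusted p under 0.05. In that fit *Selenoi* (1.05 ± 0.308), *Mat2b* (-0.93 ± 0.333), *Faah* (0.65 ± 0.222) and *Abhd4* (0.69 ± 0.255) were as far from 0 as without the covariate, and *Cbs* (0.64 ± 0.299), *Gde1* (-0.41 ± 0.211), *Lypla2* (0.50 ± 0.296) and *Sgpl1* (0.27 ± 0.222) were over 1.5 times closer to 0. With AAV-miR-34b/c against vehicle, *Cbs*, *Mat2b*, *Pld1*, *Lypla1*, *Lypla2* and *Faah* still passed with the covariate, 6 of the 15. Without vehicle library 1, 2 or AAV-GFP library 2, 3 or 4 the count of 8 became 3, 5, 4, 5 or 4, and without vehicle library 1, 4 or 5 the count of 15 became 8, 8 or 9.

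*Mat1a*, which encodes the liver enzyme that makes S-adenosylmethionine, the methyl donor of *Pemt*, was the gene that rose between the TAA groups. It was at 1569 to 2854 CPM with AAV-GFP (median 2253) and at 3387 to 5004 CPM with AAV-miR-34b/c (median 4184), without overlap. The log2 fold change was 0.87 ± 0.165 (edgeR adjusted p = 0.00477), with an adjusted p of 0.00551 when libraries 5 and 7 were left out. With close pairs summed the fold change was 0.83 ± 0.216 (adjusted p = 0.103). *Mat1a* was also above vehicle (2641 to 3299 CPM) in all 7 AAV-miR-34b/c livers, by 0.56 ± 0.155 (edgeR adjusted p = 0.0172). There it had 0.39 ± 0.189 with the clock covariate and 0.54 ± 0.234 with close pairs summed (adjusted p = 0.168 and 0.183). Of the other genes of the methyl donor cycle, *Cbs*, which draws homocysteine into cysteine synthesis, rose against vehicle with AAV-GFP by 1.02 ± 0.240 (adjusted p = 0.0102) and with AAV-miR-34b/c by 1.10 ± 0.230 (adjusted p = 0.00404). *Mat2b*, a regulatory subunit of the non-liver form of the enzyme, had -0.79 ± 0.252 with AAV-GFP (adjusted p = 0.0432), which passed in 3 of 12 fits with 1 library left out and 6 of 10 other settings (adjusted p up to 0.238). With AAV-miR-34b/c it fell by 1.18 ± 0.326 (adjusted p = 0.0172), and passed in 11 of 12 and 9 of 11. Its catalytic partner *Mat2a* had -0.38 ± 0.132 with AAV-miR-34b/c (adjusted p = 0.0477), which passed in 1 of 12 and 5 of 11 (adjusted p up to 0.337), and with AAV-GFP had -0.19 ± 0.155 (adjusted p = 0.415).

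Of 4 tested partners of the members in the Kennedy pathway, 1 was called in each comparison with vehicle, beside 12.7% of all genes with AAV-GFP and 21.9% with AAV-miR-34b/c. None was called between the TAA groups, beside 3.36% of all genes, and 3 had an unadjusted p under 0.05 in edgeR there. *Selenoi*, an ethanolamine phosphotransferase that finishes PE, rose between AAV-GFP and vehicle by 1.01 ± 0.236 (edgeR adjusted p = 0.00943). *Selenoi* was at 11.8 to 22.2 CPM with vehicle and at 21.0 to 50.8 CPM with AAV-GFP. It was at 17.5 to 30.0 CPM with AAV-miR-34b/c, a log2 difference of -0.59 ± 0.20 from AAV-GFP that did not pass (adjusted p = 0.129). *Chkb*, the second choline kinase, fell with AAV-miR-34b/c against vehicle by 0.87 ± 0.261 (adjusted p = 0.0253), and was at 10.5 to 33.6 CPM with vehicle, 14.9 to 24.0 CPM with AAV-GFP and 9.3 to 16.8 CPM with AAV-miR-34b/c. It passed in 8 of 12 fits with 1 library left out and 7 of 11 other settings (adjusted p up to 0.171), and not without libraries 5 and 7 (0.0551). *Chpt1* and *Cept1*, the other phosphotransferases among these partners, did not pass in any comparison. Between the TAA groups they had -0.54 ± 0.217 and -0.18 ± 0.251 (edgeR adjusted p = 0.219 and 0.822). *Pcyt1b*, the second CDP-choline cytidylyl transferase, had 0 to 3 counts per library and was not tested.

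Of the phosphatidylserine and phosphatidylinositol enzymes, *Cdipt*, which joins inositol to CDP-diacylglycerol, had 0.52 ± 0.183 with AAV-miR-34b/c against vehicle (edgeR adjusted p = 0.0493). This passed in 3 of 12 fits with 1 library left out and 4 of 11 other settings (adjusted p up to 0.186). *Pisd*, *Ptdss1* and *Ptdss2*, which interconvert serine, ethanolamine and choline phospholipids, did not pass, with log2 differences of -0.42 ± 0.215, 0.19 ± 0.181 and 0.04 ± 0.253 between the TAA groups (adjusted p = 0.372, 0.698 and 0.966). Of the inositol genes, *Itpk1*, an inositol phosphate kinase, rose with AAV-miR-34b/c against vehicle by 1.27 ± 0.368 (adjusted p = 0.0223), and passed in 9 of 12 and 7 of 10 (adjusted p up to 0.229, with 0.80 ± 0.446 under the clock covariate). *Impa1*, the monophosphatase that turns the product of *Isyna1* into free inositol, was at 39.3 to 47.7 CPM with vehicle, 38.2 to 60.8 CPM with AAV-GFP and 38.2 to 54.8 CPM with AAV-miR-34b/c. Its log2 difference between the TAA groups was -0.19 ± 0.144 (adjusted p = 0.599).

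Among the genes of choline uptake and oxidation, *Sardh*, which encodes sarcosine dehydrogenase, had 0.61 ± 0.204 with AAV-miR-34b/c against vehicle (edgeR adjusted p = 0.0412). This passed in 3 of 12 fits with 1 library left out and 6 of 11 other settings (adjusted p up to 0.225). *Bhmt*, which passes a methyl group of the choline product betaine to homocysteine, had a log2 difference of 0.56 ± 0.183 between the TAA groups and -0.47 ± 0.188 between AAV-GFP and vehicle, neither of which passed (adjusted p = 0.104 and 0.0978). *Chdh*, choline dehydrogenase, had -0.29 ± 0.127 between the TAA groups (adjusted p = 0.261).

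Of the genes of head group release, 4 of 10 tested passed between AAV-GFP and vehicle, beside 12.7% of all genes, and 5 of 10 with AAV-miR-34b/c against vehicle, beside 21.9%. None of these passed with close pairs summed. With the clock covariate, none of the 4 passed, and of the 5 *Gde1* did not. *Gde1*, a glycerophosphodiester phosphodiesterase like *Gpcpd1*, fell by 0.63 ± 0.161 and 0.65 ± 0.148 (edgeR adjusted p = 0.0152 and 0.00660). It was at 70.7 to 105 CPM with vehicle, and every liver of both TAA groups was lower, at 40.9 to 62.0 CPM and 47.5 to 65.5 CPM. With the clock covariate the values were -0.41 ± 0.211 and -0.49 ± 0.198 (edgeR adjusted p = 0.294 and 0.106). With a replicate block, which also left out AAV-miR-34b/c libraries 6 and 7, the second did not pass (edgeR adjusted p = 0.0538). The lysophospholipase gene *Lypla2* rose by 0.78 ± 0.230 and 0.88 ± 0.225 (adjusted p = 0.0312 and 0.0117), and *Lypla1* fell by 1.12 ± 0.257 with AAV-miR-34b/c (adjusted p = 0.00659). *Pld1*, a phospholipase D that frees choline from PC, rose by 1.15 ± 0.259 with AAV-miR-34b/c (edgeR adjusted p = 0.00609). Its level was 2.6 to 4.9 CPM with vehicle and 7.2 to 9.5 CPM with AAV-miR-34b/c, without overlap. The vehicle values rest on few counts, and *Pld1* dropped out where at least 10 counts were required in every library. It passed in 9 of the 10 other settings where it was tested. *Faah* and *Abhd4*, which act on N-acyl ethanolamines and their precursors, rose between AAV-GFP and vehicle by 0.63 ± 0.163 and 0.68 ± 0.20 (adjusted p = 0.0161 and 0.0299). With AAV-miR-34b/c against vehicle *Faah* rose by 0.62 ± 0.204 (edgeR adjusted p = 0.0381), and passed in 7 of 11 other settings (adjusted p up to 0.209). It had 0.99 ± 0.221 under the clock covariate and 0.44 ± 0.201 without libraries 5 and 7 (adjusted p = 0.151). With 1 of 12 libraries left out, *Lypla2* passed in 6 fits, *Abhd4* in 7 and *Faah* in 11 with AAV-GFP, and *Faah* in 4 with AAV-miR-34b/c. Of a separate list, phosphoethanolamine and phosphocholine turnover, 1 of 2 tested genes passed in each comparison with vehicle, beside 12.7% and 21.9% of all genes. This was *Sgpl1*, the lyase that releases phosphoethanolamine from sphingosine 1-phosphate. *Sgpl1* rose by 0.64 ± 0.191 and 0.89 ± 0.190 (edgeR adjusted p = 0.0340 and 0.00453), and passed in 6 and 12 of 12 such fits. With the clock covariate it had 0.27 ± 0.222 and 0.63 ± 0.228 (adjusted p = 0.520 and 0.0795), neither of which passed.

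**Figure D5:**
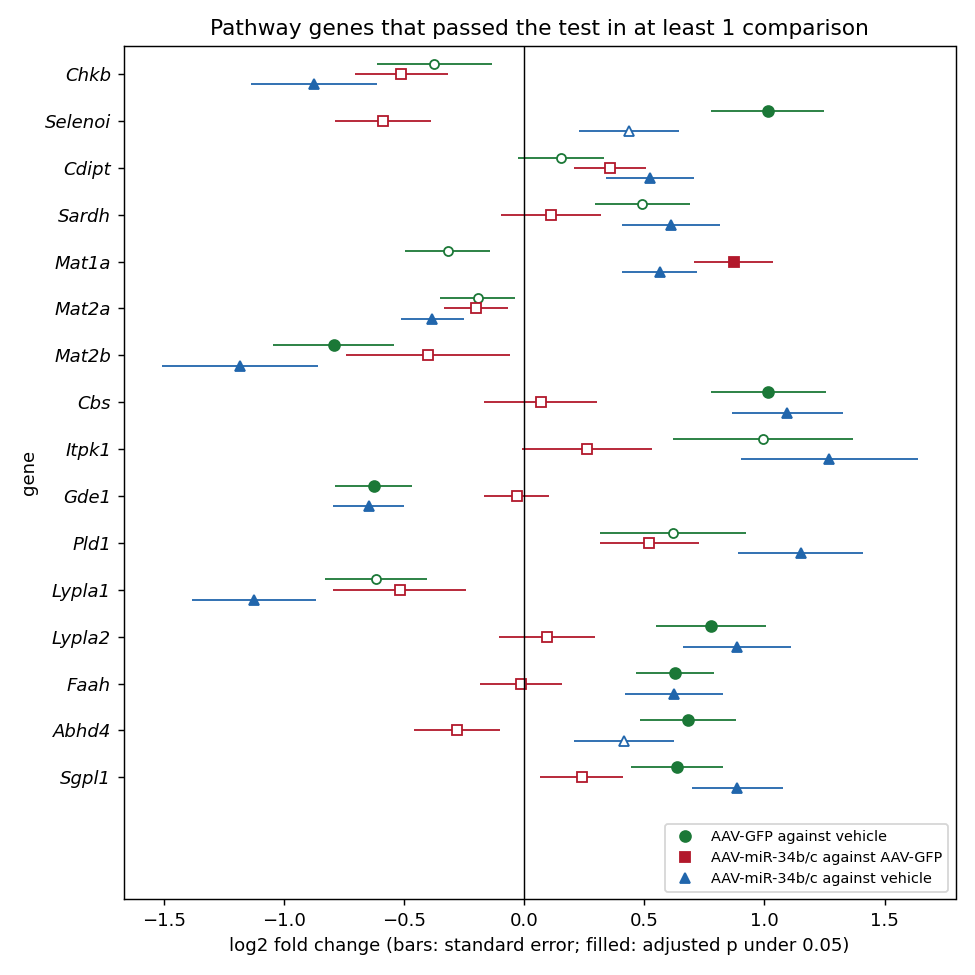
Log2 fold changes (horizontal axis) of 16 of the 17 other pathway genes that passed the test in at least 1 comparison, with standard errors as bars and filled symbols where the adjusted p is under 0.05. Between the TAA groups the symbol of *Mat1a* alone is filled, at 0.87.

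Genes of other cell types and states were called between the same groups, and their part in the values above was not tested beyond the covariate and the left-out libraries. Counts are given in the order AAV-GFP against vehicle, between the TAA groups, and AAV-miR-34b/c against vehicle, beside 12.7%, 3.36% and 21.9% of all genes, and sums in the order vehicle, AAV-GFP, then AAV-miR-34b/c. Of activated hepatic stellate cell markers 5 of 11 tested were higher, 2 of 7 lower and 0 of 7 called, and their 14 genes summed to 173 to 312 CPM, 306 to 543 CPM and 219 to 317 CPM. Of macrophage markers 4 of 11 were lower, 2 of 11 higher and 1 of 11 lower, with sums of 517 to 1016 CPM, 451 to 732 CPM and 652 to 903 CPM. Of neutrophil markers 0 of 2 were called, then 3 of 3 and 3 of 3 were higher, with sums of 17.8 to 80.8 CPM, 15.2 to 74.2 CPM and 63.8 to 1950.0 CPM. Of cholangiocyte markers 2 of 3 were higher, 0 of 3 called and 1 of 3 higher, with sums of 23.2 to 45.4 CPM, 61.8 to 107 CPM and 55.4 to 126 CPM. T or B cell markers were too low to be tested, at 1.2 to 8.3 CPM in all libraries. Of endothelial markers 0 of 9 were called, 1 of 9 was higher, and 1 higher and 1 lower of 9, with sums of 234 to 290 CPM, 201 to 275 CPM and 263 to 328 CPM. No list had a gene at 0 in all libraries. Of hepatocyte markers 2 of 12 were higher, 1 of 12 higher, and 4 higher and 1 lower of 12. Of pericentral hepatocyte markers 3 of 10 were lower, 1 of 9 higher and 2 of 9 lower, and of periportal markers 2 of 10 were higher, 1 of 10 higher, and 3 higher and 1 lower of 10. Of clock output genes 1 was higher and 4 lower of 11, 0 of 8 were called and 3 of 10 were lower, and of clock activator genes 3 of 4 were higher, 0 of 4 called and 3 of 4 higher. Of fasting and glucocorticoid genes 1 of 10 was higher and 1 lower each time. Where 0 were called, edgeR gave an unadjusted p under 0.05 for 0 stellate cell, 0 neutrophil, 2 cholangiocyte, 1 endothelial, 2 clock output and 0 clock activator genes, and no other tool was read for these lists.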

How the data were processed

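RNA from whole liver was made into 3′ mRNA libraries (QuantSeq) and read from 1 end. The authors deposited 1 table of raw counts per gene, aligned with STAR to mm10 per the submitters' processing notes; the study's methods name the sequencing provider's own pipeline (NEGEDIA Digital mRNA-seq), with quality filtering, trimming, alignment and counting by gene, and the STAR version and the annotation are not given in the sources used here. The file holds 31053 genes, of which 13985 have no counts in any library. Neither strand use nor molecular identifiers are stated for the counting.

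Counts were tested in edgeR 4.0.16 (R 4.3.3) by the quasi-likelihood test, with TMM scaling, filterByExpr at a minimum of 10 counts, 1 fit per pair of groups and Benjamini-Hochberg adjustment over all genes tested. Log2 CPM used a prior count of 2. Alternatives were no filter, at least 10 counts in every library, other scalings, DESeq2 1.42.0, and limma 3.58.1 with voom and sample quality weights together. Others were all groups in 1 fit, a replicate block on the library numbers found in both groups, and a clock covariate. Close pairs were also summed, and each library left out. In the comparisons with vehicle, the clock covariate overlaps little between the groups. Leaving out 2 libraries was added after the data were seen. The members and gene lists were chosen with earlier results of these data known. The text names all members, the other pathway genes that were called (except 1 that is counted but not reported here) or are a member's partner or paralogue, and the 3 genes most like each member by Pearson r (for *Etnppl* and *Gpcpd1* also with group means subtracted). Plots were drawn with matplotlib 3.10.9.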

Additional observations from a re-analysis of the deposited data

Results flagged for a closer look

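Of 30 sets of values examined for a library far from the rest of its group (the total count and the level of each member in every group), 3 held one, where chance gives about 1.5. The total count of AAV-GFP library 5 was 4383805, and the next of its group was 3239809. *Etnk2* was lowest in AAV-GFP library 7, at 6.917 log2 CPM, with the next at 7.526. *Pcyt2* was lowest in the same library, at 6.56 log2 CPM, with the next at 6.853. AAV-GFP library 7 also had the highest clock output level of its group.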

How the results depend on the processing

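Of the members' fold changes, 264 kept direction and side of the threshold under the other settings, 4 lost a call, 7 gained one and 11 changed sign. With 1 library left out, 330 kept both, 7 lost a call (all *Etnk1* between AAV-GFP and vehicle), 2 gained one and 3 changed sign. The causes were not tested. Between AAV-GFP and vehicle, the 1212 genes called became 2687 with voom and sample quality weights, which were changed together. They became 241 with the clock covariate and 227 with close pairs summed, and the 8 pathway genes became 17, 0 and 0 in this order. *Pemt* had -0.1003 with the covariate. Between the TAA groups, the 311 genes called became 624 with library size only and 542 with DESeq2. They became 813 with voom and sample quality weights and 87 with close pairs summed. The 1 pathway gene became 5, 1, 5 and 0 in this order, and 2 without AAV-miR-34b/c libraries 5 and 7. With library size only, *Etnk1* had -0.01054, *Etnk2* -0.06573, *Pcyt2* -0.1083 and *Pemt* -0.03825. Without libraries 5 and 7, *Etnk2* had -0.1584, *Chka* 0.1273 and *Gpcpd1* -0.08245. With AAV-miR-34b/c against vehicle, the 2037 genes called became 3839 with voom and sample quality weights and 1036 with the covariate. They became 331 with close pairs summed and 1352 without libraries 5 and 7. The 15 pathway genes became 23, 6, 0 and 8 in this order. The 3 members called became 5 both with voom and sample quality weights and without libraries 5 and 7. *Etnk2* had 0.06186 and *Etnppl* 0.03215 with the covariate. With 1 library left out, 689 (without vehicle library 4) to 1859 (without AAV-GFP library 6) genes and 3 to 12 pathway genes passed with AAV-GFP against vehicle, 209 to 344 genes between the TAA groups, and 1267 (without vehicle library 4) to 2695 genes and 8 to 15 pathway genes with AAV-miR-34b/c against vehicle. *Pemt* ranged from -0.007695 to 0.182 between AAV-GFP and vehicle, and *Etnk2* from -0.03504 to 0.1692 and *Pcyt2* from -0.08126 to 0.1502 between the TAA groups.

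Same-numbered libraries did not deviate together (r of -0.313 to 0.296), so that the numbers give no pairing. A replicate block, fitted on the library numbers found in both groups, gave 3088, 142 and 922 genes in the 3 comparisons. The pathway genes called were 18, 1 and 7, and *Pemt* had -0.01677 in the first comparison. Both fits against vehicle thereby left out libraries 6 and 7 of the TAA group, so the block and this loss were changed together. *Chka* in the vehicle group, with 9 to 26 counts per library, is the member whose precision the depth limits most.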
